A study of Mus musculus with 9 samples.

Results

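The receptor genes Cxcr4, Cxcr5, Cxcr6, Ccr2, Ccr4, Ccr6, Ccr9, Ccr10 and S1pr5 were examined for H3K27 acetylation in naive CD8+ T cells of wild-type (WT) mice and of mice lacking Tcf1 and Lef1 (dKO). They were taken by name as inflammatory and follicular chemokine receptors, and are 9 of the 21418 autosomal protein-coding genes of the mm9 annotation. The list is wider than that name: S1pr5 is a receptor for sphingosine-1-phosphate (S1P), a lipid, and Cxcr4 and Ccr9 also serve steady-state homing. Mice of either genotype had a Rosa26 GFP reporter and hCD2-Cre, a transgene that acts mainly once T cells have matured. WT mice were Tcf7+/+ Lef1+/+ and dKO mice were Tcf7 fl/fl Lef1 fl/fl, young adults of both sexes on a C57BL/6 background. Because the Cre acts in some cells and not in others, GFP was used to mark cells with an active Cre. Spleen cells were sorted as GFP+ TCRbeta+ CD62Lhi CD44lo-med CD8+. H3K27ac, a histone mark of active promoters and enhancers, was mapped by ChIP-seq in 4 WT and 3 dKO samples with 1 input per genotype.

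The reads of each genotype had been pooled before islands, the stretches enriched for the mark, were called. Each genotype is therefore represented by 1 list of islands, no spread between replicates can be computed, and no difference below was tested. Differences are described as higher or lower in the dKO list, with 95% Wilson intervals in parentheses that cover only the error of counting. In WT there were 65563 islands with 82668007 counts, which covered 392.7 Mb. In dKO 82213 islands with 57665047 counts covered 429.3 Mb. Levels of marker genes and levels in the figures are given as CPM, the counts of an island per 1000000 counts of its list. Counts and counts per kb given elsewhere are raw. They do not compare directly between the lists, which differ in total counts. Sums over marker genes count an island once where markers share it. Islands of T cell markers (5 of 5 annotated) lay at the promoters in both lists, with 583.3 CPM in sum in WT and 489.5 in dKO. They covered 136.4 kb in WT and 109.6 kb in dKO. Cd3d and Cd3g shared 1 island in WT (163.4 CPM) and Cd3e had another (82.2), and in dKO all 3 shared 1 (214.9). Lck (200.1 to 175.2) and Lat (137.6 to 99.4) were lower in dKO. Both CD8 markers, Cd8a and Cd8b1, shared 1 island in WT (362.3 CPM) and had 1 each in dKO (291.5 CPM in sum). All 5 naive cell markers also had one in both, with 2126 CPM in sum in WT and 918 in dKO. For other cells, both CD4 markers had promoter islands in both lists (59.0 and 69.0 CPM in sum). The B cell markers had promoter islands for 5 of 5 genes in both lists (294 and 388 CPM in sum) and the monocyte and macrophage markers for 4 of 4 (117 and 98.3 CPM). Of 3 NK cell markers only Klrb1c had one in either list, and Ncr1 and Klrk1 had none. The granulocyte markers had none in WT and 2 of 3 in dKO (8.8 CPM in sum), with Csf3r at none in both. The dendritic cell markers had 2 of 3 in WT and 1 of 3 in dKO (15.0 and 3.0 CPM), with Siglech at none in both. Effector and memory markers had islands for 5 of 5 in both lists, at 374 CPM over 115.2 kb in WT and 628 CPM over 217.8 kb in dKO in sum. Gzmb (19.5 to 39.1 CPM), Prf1 (39.8 to 160.1) and Il2rb (238.0 to 366.5) were higher in dKO, and Cd44 (58.7 to 47.2) and Ifng (18.2 to 14.9) were lower. By CPM per kb of island, Prf1 (5.10 to 2.98) and Il2rb (3.79 to 2.93) were lower in dKO and Gzmb (2.50 to 3.99) was higher. The part of other cells in the values below was not tested. A lower count from fewer acetylated cells and one from less mark per cell cannot be told apart in sorted bulk cells.

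Chemokine receptors are G protein-coupled receptors that steer leukocytes along gradients of chemokines, and S1P receptors do so for S1P. Naive CD8+ T cells recirculate through lymph nodes on Ccr7 and leave them on S1pr1. The genes described here serve other routes: retention in bone marrow (Cxcr4), entry into B cell follicles (Cxcr5), inflamed tissue (Ccr2, Cxcr6), skin (Ccr4, Ccr10), mucosa (Ccr6, Ccr9), and blood for NK and effector T cells (S1pr5).

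Promoter sequence was matched for 7 of the 9 genes in the RefSeq table for GRCm38.p6, and each was located in mm9 by its single exact match. Cxcr5 and Ccr10 were not matched. The 250 bases before a start site are shown 5′ to 3′ for Cxcr4 and S1pr5, the genes with the lowest and the highest count ratio. They are also shown for Ccr4 and for the first start of Ccr6, the only ones with a TCF/LEF motif (CTTTGAA or CTTTGAT on either strand), printed in capitals as it reads on the gene's strand. Every base shown lay inside an island in both lists.
Cxcr4 (mm9 chr1:130488877-130489126, minus strand): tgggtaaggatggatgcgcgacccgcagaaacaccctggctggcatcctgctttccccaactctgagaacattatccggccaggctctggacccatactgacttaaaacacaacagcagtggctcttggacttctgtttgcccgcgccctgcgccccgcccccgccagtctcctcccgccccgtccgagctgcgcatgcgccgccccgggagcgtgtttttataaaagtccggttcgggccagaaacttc
S1pr5 (mm9 chr9:21052888-21053137, minus strand): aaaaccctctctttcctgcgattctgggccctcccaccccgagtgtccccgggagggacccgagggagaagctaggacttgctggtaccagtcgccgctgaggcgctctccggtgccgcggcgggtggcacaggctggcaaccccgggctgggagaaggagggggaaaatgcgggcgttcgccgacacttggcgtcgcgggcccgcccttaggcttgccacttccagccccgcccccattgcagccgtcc
Ccr4 (mm9 chr9:114405663-114405912, minus strand): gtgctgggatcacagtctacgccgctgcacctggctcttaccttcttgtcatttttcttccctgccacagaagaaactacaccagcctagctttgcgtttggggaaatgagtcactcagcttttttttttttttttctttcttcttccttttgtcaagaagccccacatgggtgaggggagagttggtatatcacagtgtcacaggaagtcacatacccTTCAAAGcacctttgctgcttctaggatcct
Ccr6 (mm9 chr17:8428658-8428907, plus strand): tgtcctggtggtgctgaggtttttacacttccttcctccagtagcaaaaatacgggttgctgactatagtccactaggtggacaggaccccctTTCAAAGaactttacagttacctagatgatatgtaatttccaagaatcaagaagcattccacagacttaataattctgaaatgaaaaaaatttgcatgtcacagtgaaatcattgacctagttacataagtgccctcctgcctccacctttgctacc
The 250 bases of Cxcr4 held 19 CG pairs and those of S1pr5 held 22, against a median of 6 over 32851 promoters. The 6 other promoters that matched, 2 of them of Ccr6, held 1 to 7. The motif of Ccr4 lay 31 to 25 bases before the start and that of Ccr6 157 to 151 bases before it, and both read CTTTGAA on the strand opposite to the gene. Of all promoters of this length, 7.5% held a TCF/LEF motif. No match to the ETS motif CCGGAAG (6.9% of promoters), the RUNX motif TGTGGTT (4.4%) or the T-box motif GGTGTGA (3.3%) was found in the promoters of the receptor genes, searched on both strands. A motif match is a match of letters and not a measured binding site.

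Each gene was summarized over its body and 50 kb upstream. Every island touching this window was counted whole, and counts were scaled by the total of their list. All 9 genes had islands in both lists, as did 74.9% of autosomal genes. By scaled counts, 6 of 9 genes were higher in dKO and 3 were lower, and 48.6% of the 16051 genes with islands in both lists were higher. Only S1pr5 was at least 1.5 times higher, a size reached by 11.7% of genes, and none was at least 1.5 times lower, a size reached by 10.3%. Of the 3 lower genes, Cxcr6 (-0.01) and Ccr9 (-0.00) turned to 0.06 and 0.07 when counts were scaled by the regions found in both lists, and Ccr4 then passed 1.5 times at 0.63. The median log2 count ratio (dKO to WT) was 0.14 over the 9 genes and -0.01 over all genes. At this level the 9 genes lay near the background. When counts were taken over regions joined across the lists, the ratio of S1pr5 fell from 1.06 to 0.25 and that of Cxcr4 moved from -0.53 to -0.23, while Ccr4 went from 0.56 to 0.57.

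**Figure D1:**
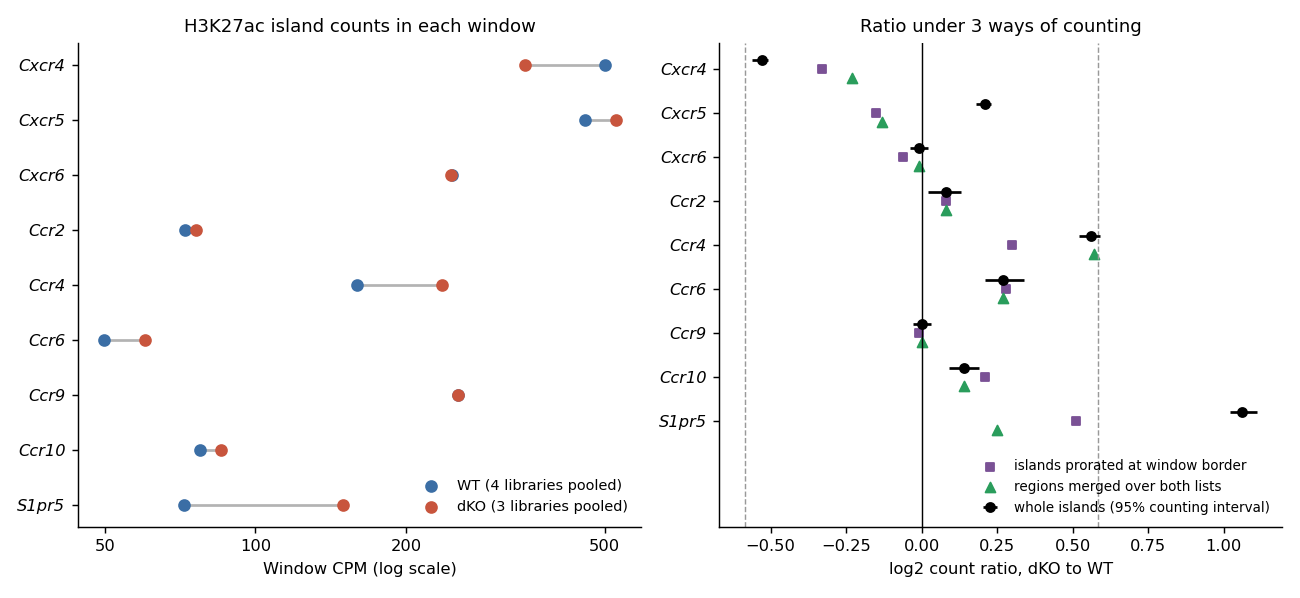
Left, window counts of the 9 genes in CPM (log scale), with 1 point per pooled list. Right, log2 count ratio of dKO to WT from whole islands (black, with 95% counting intervals), from islands prorated at the window border (squares) and from regions merged over both lists (triangles), with dashed lines at 1.5 times either way. Cxcr4 (501 to 347 CPM), Ccr4 (160 to 236 CPM) and S1pr5 (71.9 to 150 CPM) lie farthest apart, and S1pr5 moves from 1.06 with whole islands to 0.25 with merged regions.

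Counts of this kind grow with the width that is called. Over all 16051 genes the count ratio and the ratio of covered width correlated at a Spearman rho of 0.87, a description across genes that share the same 2 lists. Covered width was larger in dKO for 7 of the 9 genes and for 66.3% of all genes, with medians of the log2 width ratio of 0.22 and 0.18. Scaled counts per covered kb were higher in dKO for 4 of the 9 genes and for 20.3% of all genes, with medians of the log2 ratio of -0.02 and -0.16. None of the 9 genes reached 1.5 times by this density in either direction, which 0.361% of genes reached upward and 9.28% downward. The density ratios of the receptor genes spanned -0.18 for Cxcr5 to 0.24 for Ccr4.

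**Figure D2:**
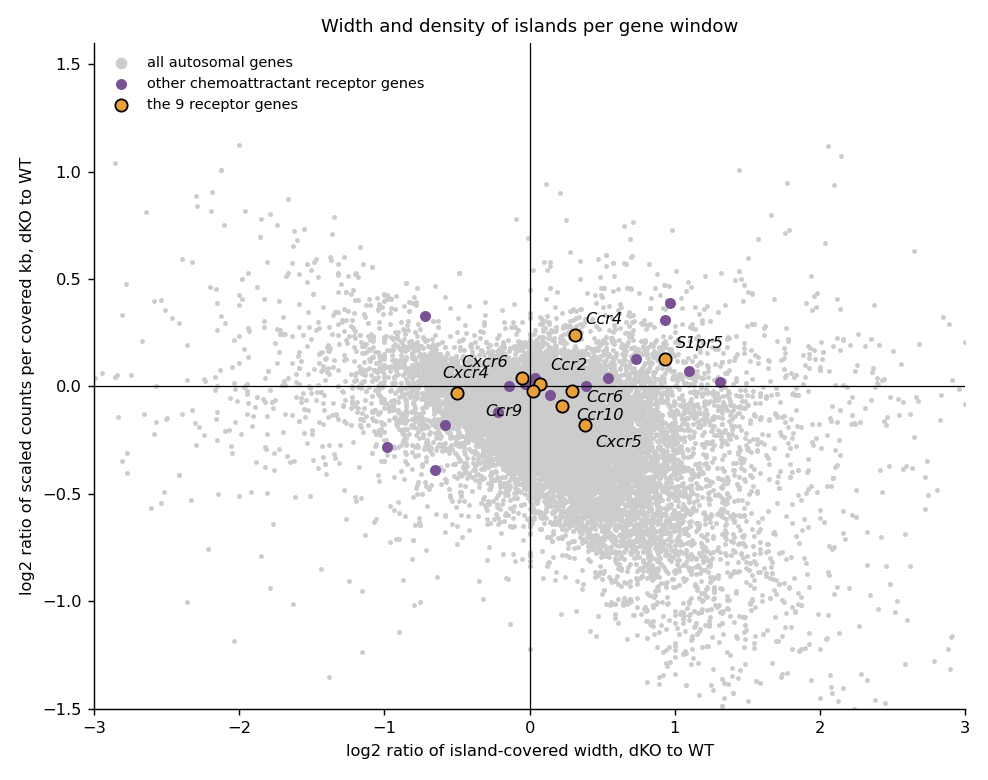
Log2 ratio of island-covered width against log2 ratio of scaled counts per covered kb, dKO to WT, for all autosomal genes with islands in both lists (grey, 116 outside the axes), the 9 receptor genes (orange) and the other receptor genes (purple). The receptor genes lie within -0.18 to 0.24 on the density axis and spread along the width axis from -0.50 for Cxcr4 to 0.93 for S1pr5.

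To count both genotypes over the same span, overlapping islands were joined across the lists into merged regions (an overlap of 1 bp was enough). The 9 windows touched 51 regions, of which 41 were in both lists, 2 in WT alone and 8 in dKO alone. A region in 1 list alone is an island that overlaps none of the other list. Of all autosomal islands, 85.4% in WT and 73.7% in dKO did overlap one, so islands of dKO alone were more common throughout. Of the 41, 25 had a higher scaled count in dKO, 15 a lower one and 1 a ratio of 0.00. Their median log2 ratio was 0.12, compared with -0.07 over 44698 autosomal regions, of which 43.8% were higher. At least 1.5 times higher were 7 of the 41 regions and at least 1.5 times lower was 1, and 11.2% and 14.2% of all regions were. Neighboring regions are not independent, and the 41 include 1 that both the Ccr9 and Cxcr6 windows touched.

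**Figure D3:**
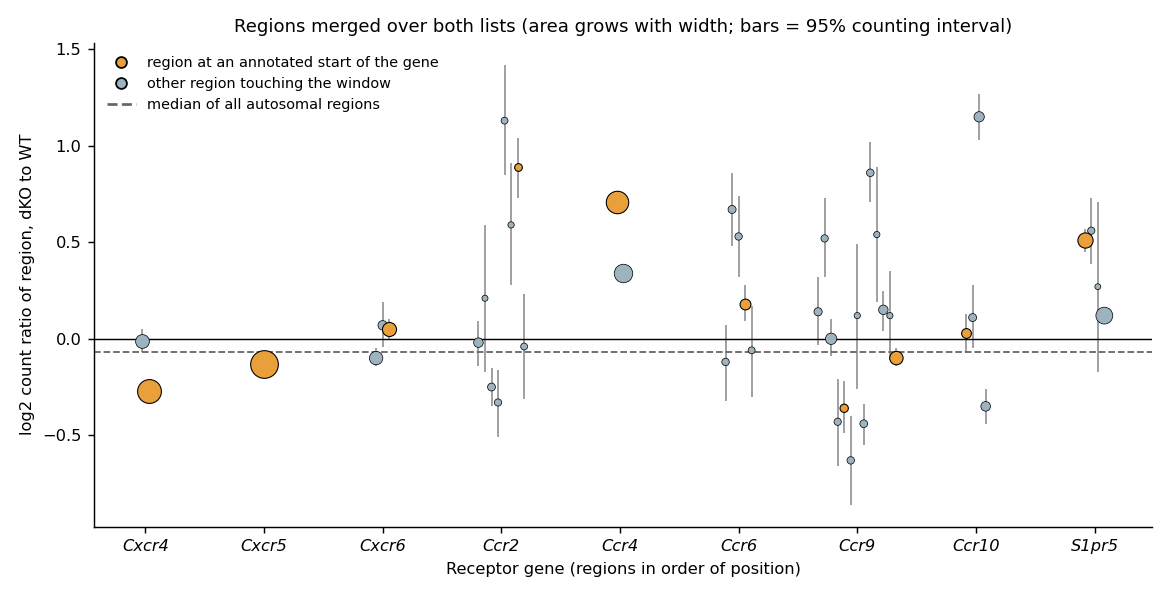
Log2 count ratio (dKO to WT) of each merged region at the 9 genes, in order of position, with 95% counting intervals and point area growing with region width. Orange points mark regions at an annotated start of the gene, and the dashed line is the median of all autosomal regions (-0.07). The start regions of Ccr2 (0.89), Ccr4 (0.71) and S1pr5 (0.51) lie highest, and 1 of the 2 at Ccr9 (-0.36) and that of Cxcr4 (-0.27) lowest.

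All 9 genes had an island within 1 kb of an annotated start site in both lists, compared with 63.4% of genes in WT and 63.8% in dKO. The density ratio of the promoter islands was above 0 for 5 of the 9 genes and for 28.6% of 13062 genes, with medians of 0.11 and -0.20. Of the 56 different WT islands at the 9 windows, 54 (96.4%, 95% Wilson interval 87.9 to 99.0) overlapped a dKO island, and 85.4% of all autosomal WT islands did. Of the 67 dKO islands, 59 (88.1%, 78.2 to 93.8) overlapped a WT island, and 73.7% of all did. The 2 WT islands without a partner held 600 of 145694 counts and the 8 dKO islands without one held 1412 of 107282 counts. An overlap of 1 bp was enough for these counts. When the overlap had to reach 50% of both islands, 58.9% of the WT islands and 47.8% of the dKO islands had a partner.

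Cxcr4, the receptor for Cxcl12 that holds cells in bone marrow and guides them within lymphoid organs, had the lowest ratio. Its window on chromosome 1 (130484776 to 130538870) had 3 islands in either list. They held 41414 counts in WT, across 120.2 kb, and 19988 counts in dKO, across 84.8 kb. The log2 count ratio was -0.53 (-0.56 to -0.51), with a width ratio of -0.50 and a density ratio of -0.03. The promoter island was the largest, 39.4 kb wide with 26528 counts (673 per kb) in WT and 42.0 kb wide with 14577 counts (347 per kb) in dKO. At this island the count ratio was -0.34 (-0.37 to -0.32) and the density ratio -0.44, while the median promoter island of 13062 genes had a density ratio of -0.20. The next WT island upstream ran for 62.0 kb with 11577 counts and reached well past the window, and the dKO island at its place ended after 13.8 kb with 1955 counts. Farther dKO islands lay beyond the window, and over the merged region of 102.4 kb the counts were 38105 in WT and 22091 in dKO, a ratio of -0.27 (-0.29 to -0.24). The region downstream of the gene was level between the lists, with a ratio of -0.01. Cxcr4 was lower in dKO under all 14 alternative ways of counting tried, with ratios between -0.54 and -0.16.

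Cxcr5, the receptor for Cxcl13 that directs B cells and follicular T cells into follicles, lay almost wholly under islands, with 98.8% of its window covered in WT and 100% in dKO. The window on chromosome 9 (44319871 to 44384504) touched 2 WT islands with 37738 counts over 107.8 kb and a single dKO island with 30359 counts over 140.4 kb. The count ratio was 0.21 (0.18 to 0.23) and the density ratio -0.18. The WT promoter island of 82.2 kb also covered the start of Bcl9l, and the dKO island those of Bcl9l and Ddx6. Merged over both lists, the region of 140.8 kb held 47510 counts in 4 WT islands, and the ratio was -0.13 (-0.15 to -0.11). The sign for Cxcr5 thus depended on the borders: it was above 0 by whole islands in the window and below 0 over 1 shared span. At 350 counts per kb Cxcr5 was the densest of the 9 windows in WT, and Cxcr4 with 236 per kb was the densest in dKO.

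Cxcr6, which binds Cxcl16 and marks tissue-resident and effector T cells, and Ccr9, which binds Ccl25 and guides T cells to the small intestine, are neighbors on chromosome 9 and share islands. The Cxcr6 window (123665595 to 123720872) held 20485 counts in WT (70.2 kb covered) and 14191 in dKO (68.0 kb covered). Its ratios were -0.01 (-0.04 to 0.02) by counts and 0.04 by density. The Ccr9 window of 153.5 kb (123537557 to 123691089), which also covered the starts of Slc6a20a, Slc6a20b and Lztfl1, held 21004 counts in WT (89.4 kb covered) and 14632 in dKO (90.6 kb covered), with ratios of -0.00 (-0.03 to 0.03) and -0.02. The intervals of both genes included 0. The largest island of both windows lay at the start used by most Ccr9 transcripts. It held 10615 counts over 28.0 kb in WT, 50.5% of the Ccr9 counts and 51.8% of the Cxcr6 counts, and 6544 counts over 23.8 kb in dKO. In dKO its downstream end was split off as 2 small islands of 102 and 271 counts, and the merged region had a ratio of -0.10. At the promoter of Cxcr6 itself the island held 8413 counts in WT and 6082 in dKO, a ratio of 0.05 (0.00 to 0.10). Within the wide Ccr9 window single regions differed more: a region of 4.8 kb near Lztfl1 had 576 counts in WT and 731 in dKO (0.86, 0.71 to 1.02), and one of 4.4 kb had 473 and 213 (-0.63, -0.86 to -0.40).

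Ccr2, the receptor for Ccl2 on monocytes and effector T cells, lies in the same cluster of receptor genes. Its window on chromosome 9 (123966689 to 124028296) held 5972 counts in 10 WT islands and 4396 counts in 11 dKO islands. The count ratio was 0.08 (0.02 to 0.13) and the density ratio 0.01. The promoter stood apart from the rest of the window. The promoter island was 3.2 kb wide with 464 counts in WT and 5.2 kb wide with 748 counts in dKO, a ratio of 1.21 (1.04 to 1.38), and its density ratio of 0.51 was higher than at 96.8% of promoters. In the merged region of 5.2 kb, which took in a further WT island, the counts were 580 and 748, a ratio of 0.89 (0.73 to 1.04). A region of 2.8 kb upstream had 166 counts in WT and 254 in dKO (1.13, 0.85 to 1.42). In contrast, the largest island of the window, from -35.1 to -29.7 kb of the start, held 2278 counts in WT and 1335 in dKO, with a region ratio of -0.25 (-0.35 to -0.15). With 145 counts per kb the WT promoter island of Ccr2 was denser than those at 8.6% of promoters in its list, and with 144 per kb the dKO island was denser than those at 31.3% in its own. Ccr2 is also expressed by monocytes, whose markers had promoter islands in both lists. In sum these islands held 117 CPM over 55.0 kb in WT and 98.3 CPM over 44.2 kb in dKO. By CPM per kb, Csf1r (1.46 to 1.54), Lyz2 (1.52 to 1.67) and Cd14 (1.94 to 2.62) were higher in dKO, and Itgam was level (2.32 to 2.31). The part of monocytes in the Ccr2 values was not tested.

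Ccr4, the receptor for Ccl17 and Ccl22 on skin-homing and regulatory T cells, had the second highest ratio and the highest density ratio of the 9 genes. Its window on chromosome 9 (114399434 to 114455662) held 13227 counts in 7 WT islands over 80.0 kb and 13583 counts in 3 dKO islands over 99.4 kb. The count ratio was 0.56 (0.52 to 0.59), or 1.47 times and just under the size called, and the density ratio of 0.24 was higher than in 97.2% of genes. The WT promoter island was 4.2 kb wide with 930 counts, and the start lay inside a dKO island of 41.2 kb with 6008 counts. This promoter ratio of 3.21 came with a width ratio of 3.29 and a density ratio of -0.08, so it described a joining of islands. Over merged regions, the start region of 90.4 kb held 13352 counts in 5 WT islands and 15206 counts in 2 dKO islands, a ratio of 0.71 (0.67 to 0.74). The region upstream, of 59.6 kb, held 8597 and 7575 counts, a ratio of 0.34. The first span also covers part of Glb1 and the other part of Trim71. With merged regions the window ratio was 0.57, close to that of whole islands, and with islands prorated at the border it was 0.30. By island midpoint it was 0.16, and with islands nearest to a start of Ccr4 it was -0.01. Over 14 alternative ways of counting the ratio reached up to 1.29 and was above 0 in 13.

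Ccr6, the receptor for Ccl20 on mucosal and interleukin-17-producing T cells, and Ccr10, the receptor for Ccl27 and Ccl28 in skin and mucosa, had low densities in both lists. Ccr6 had the lowest of the 9, at 134 counts per kb in WT and 92.5 in dKO. Its window on chromosome 17 (8379077 to 8449992) held 4111 counts in 7 islands in WT and 3459 counts in 10 islands in dKO, with ratios of 0.27 (0.21 to 0.34) by counts and -0.02 by density. The count ratio of Ccr6 was above 0 under 13 of 14 alternative ways of counting, and -0.46 with 50 kb on both sides of the gene. The region at the starts of Ccr6 held 2007 and 1587 counts (0.18, 0.09 to 0.28). Of the 10 dKO islands, those of 273 and 199 counts upstream had no WT partner, and 1 WT island of 437 counts had no dKO partner. Ccr10 on chromosome 11 (window 101034311 to 101086757) held 6415 counts in WT and 4929 in dKO, with ratios of 0.14 (0.09 to 0.19) and -0.09. Its promoter island, shared with the starts of Cntnap1 and Plekhh3, was level, with 1940 and 1380 counts (0.03, -0.07 to 0.13). The upstream regions of Ccr10 differed in opposite directions. One of 14.0 kb in the downstream part of Ezh1 held 866 counts across 7.0 kb in WT and 1340 across 13.6 kb in dKO (1.15, 1.03 to 1.27). The one at the Ezh1 start held 2943 and 1613 counts (-0.35, -0.44 to -0.26).

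S1pr5, through which NK cells and effector T cells leave bone marrow and lymph nodes, had the highest ratio by the whole-island count. Its window on chromosome 9 (21047356 to 21102887) held 5943 counts in WT (33.8 kb covered) and 8662 in dKO (64.6 kb covered). This gave a ratio of 1.06 (1.02 to 1.11) with a width ratio of 0.93 and a density ratio of 0.13. Of the dKO counts, 3691 (42.6%) lay in 1 island of 23.6 kb that entered the window by 4.1 kb and covered the start of Ap1m2 beyond it. The WT island at the same border held 952 counts over 6.0 kb. When both lists were counted over the merged region there, of 48.2 kb, the counts were 12286 in WT and 9337 in dKO, a ratio of 0.12 (0.08 to 0.16). The region over S1pr5 itself, of 38.2 kb, which also took in the start of Atg4d but not that of Kri1, held 4364 and 4342 counts, a ratio of 0.51 (0.45 to 0.57) with a width ratio of 0.64 and a density ratio of -0.13. At the promoter the WT island of 16.4 kb held 2257 counts and the narrower dKO island held 1092, a ratio of -0.53 (-0.63 to -0.42). This came with a width ratio of -0.71 and a density ratio of 0.19, which was higher than at 86.9% of promoters. Restricted to the gene body and 5 kb upstream, the ratio of S1pr5 was -0.88. The call for S1pr5 thus rested on borders, and with merged regions, at 0.25, or with prorated islands, at 0.51, none of the 9 genes was called higher.

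**Figure D4:**
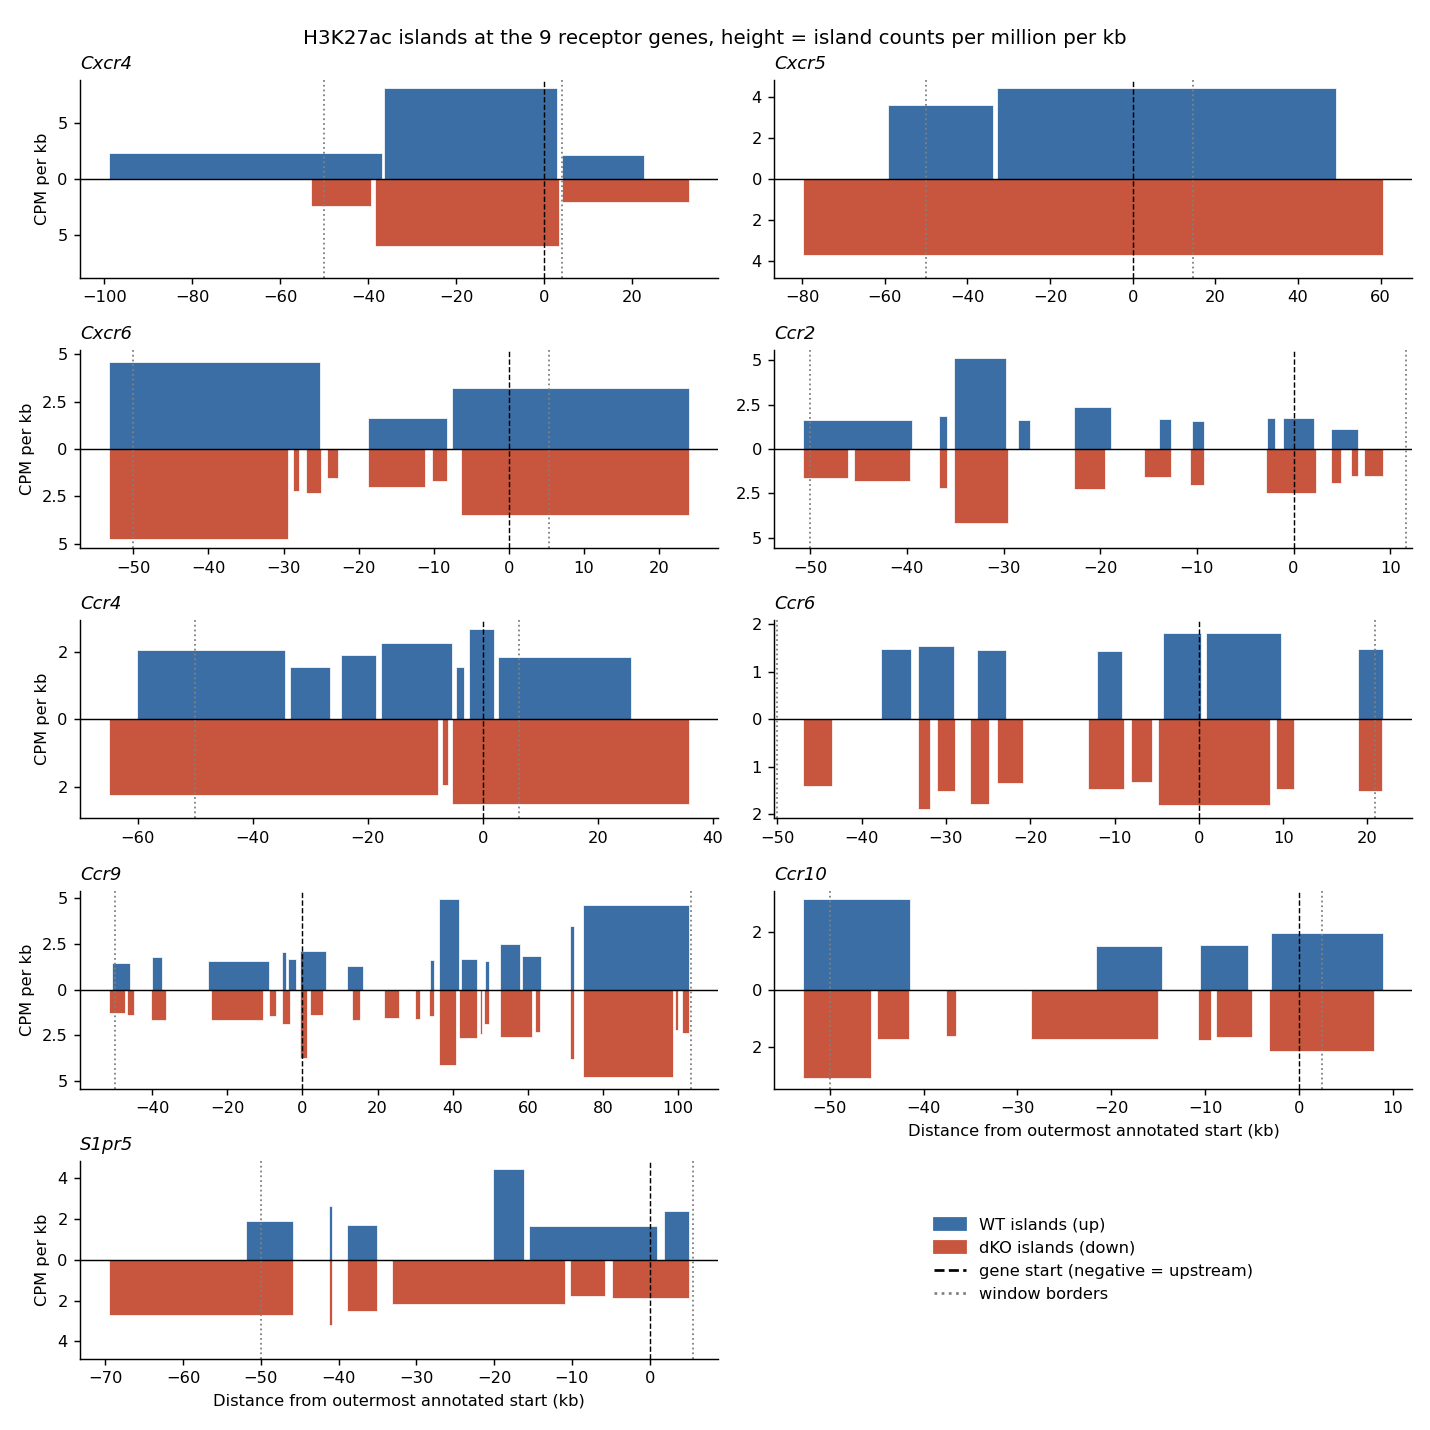
Islands of WT (up) and dKO (down) at each receptor gene by distance from the outermost annotated start in kb, with height in CPM per kb, dashed lines at the start and dotted lines at the window borders. The single dKO island of 140.4 kb at Cxcr5, the 3 dKO against 7 WT islands at Ccr4 and the dKO island that runs out of the S1pr5 window show how borders differed, and the Cxcr4 promoter island is lower in dKO at a similar width.

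By level, the order of the windows in WT counts per covered kb was Cxcr5 (350), Cxcr4 (345), Cxcr6 (292), Ccr9 (235), Ccr2 (189), Ccr10 (180), S1pr5 (176), Ccr4 (165) and Ccr6 (134). In dKO it was Cxcr4 (236), Cxcr5 (216), Cxcr6 (209), Ccr9 (162), Ccr4 (137), S1pr5 (134), Ccr2 (132), Ccr10 (118) and Ccr6 (92.5). The islands of the whole list averaged 210.5 counts per kb in WT and 134.3 in dKO. In both lists Cxcr4, Cxcr5, Cxcr6 and Ccr9 were above the list average and Ccr6 was last. Whether neighbors in these orders differ cannot be told without a spread between samples.

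Of the 9 genes, 6 are on chromosome 9, and Ccr9, Cxcr6 and Ccr2 lie there within 440.7 kb of a receptor cluster, with Xcr1, Ccr1 and Ccr3. The part from Ccr9 to Fyco1 held 33515 counts in WT and 22871 in dKO, a ratio of -0.03 (-0.06 to -0.01). The part from Xcr1 to Ccr2 held 24675 and 18036 counts, a ratio of 0.07 (0.04 to 0.10). The median over all chromosome 9 genes was -0.03. Both parts were thus near level, although single regions such as the Ccr2 promoter were not.

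**Figure D5:**
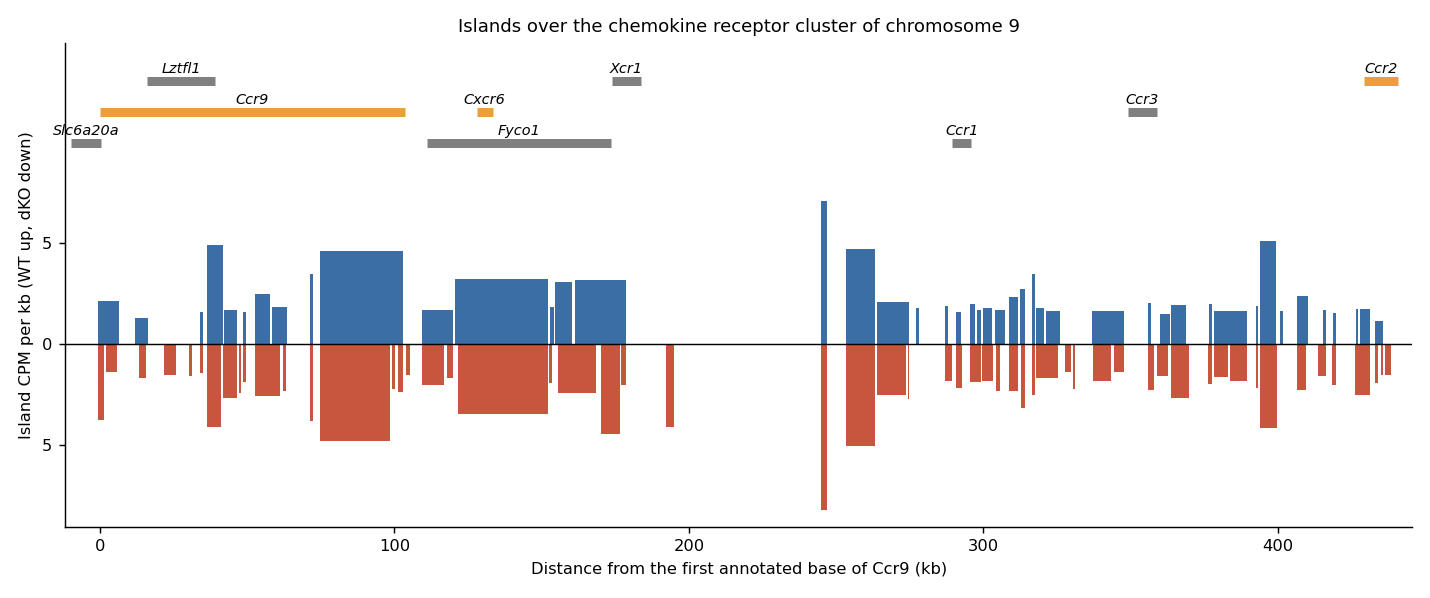
Islands of WT (blue, up) and dKO (red, down) over the chromosome 9 receptor cluster by distance from the first annotated base of Ccr9 in kb, with height in CPM per kb and gene bodies above (orange for Ccr9, Cxcr6 and Ccr2). The lists mirror each other over most of the 440.7 kb, with part ratios of -0.03 and 0.07.

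Among 19 other chemoattractant and S1P receptor genes, 17 had islands in both lists and Ccrl1 and Cxcr7 had none. By whole islands 5 of the 17 were at least 1.5 times higher in dKO (11.7% of all genes) and 3 at least 1.5 times lower (10.3%), with a median log2 ratio of 0.08. Over merged regions 2 were higher and 1 was lower by this size, as were 7.23% and 8.04% of all genes. The 6 with the largest ratios were Ccr8 (1.36), Darc (1.33), S1pr1 (-1.26), Cx3cr1 (1.24), Cmklr1 (1.17) and Ccr7 (-1.04). Ccr8, of skin-homing and regulatory T cells, and Cx3cr1, of effector T cells, lie side by side on chromosome 9 within reach of the same islands. Ccr7 and S1pr1, the entry and exit receptors of naive T cells, had 62344 and 34849 counts in WT and 21159 and 10179 in dKO. These ratios too shrank when both lists were counted over the same regions, to 0.53 for Ccr8, 0.52 for Cx3cr1, -0.52 for Ccr7 and -0.14 for S1pr1. Darc (0.98) and Cmklr1 (1.17) stayed at least 1.5 times higher, on low counts. By whole islands the counts were 938 in WT and 1641 in dKO for Darc and 829 and 1299 for Cmklr1. Of the other S1P receptors, named after their values were seen, S1pr4 went from 0.86 by whole islands to 0.45 over merged regions, below the size called, and S1pr2 from 0.39 to 0.08. S1pr3 stayed at least 1.5 times lower, at -0.77 by either count.

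Of 12 ligand genes of these receptors, 11 were found in the annotation. The windows of Cxcl12, Cxcl13, Ccl2, Ccl7, Ccl12 and Ccl20 touched no island in either list. The 5 with islands had a median log2 ratio of -0.42. None was at least 1.5 times higher in dKO, and 1 was at least 1.5 times lower, a size that 10.3% of all genes reached. It was Ccl25, the ligand of Ccr9, with 11721 counts in WT and 4280 in dKO (-0.93, -0.98 to -0.88). Its width ratio was -0.76 and its density ratio -0.17, near the median density ratio of all genes (-0.16). Ligand windows were not counted over merged regions. The other 4, named after their values were seen, were below that size. They were the Ccr4 ligands Ccl17 at -0.51 (-0.60 to -0.41) and Ccl22 at -0.42 (-0.49 to -0.35), the Ccr10 ligand Ccl27a at 0.41 (0.24 to 0.57) and the Cxcr6 ligand Cxcl16 at 0.03 (-0.02 to 0.07).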

How the data were processed

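H3K27ac ChIP-seq reads were aligned by the authors to mm9 with Bowtie2 2.2.5, kept at a mapping quality above 10 and pooled by genotype, and SICER 1.1 called the islands at an FDR of 0.01, in windows of 200 bp with gaps of up to 400 bp. The deposited values are raw counts per island, not scaled for depth or width, and a stretch without an island has no count. How duplicate reads and the inputs were treated is not given in the sources used here. The inputs carried no values of their own.

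Starts, deposited counting from 0, are given counting from 1. Gene windows used GENCODE vM1 (mm9), and overlaps, ratios and intervals were computed with Python 3.11.15, pandas 2.3.3 and scipy 1.17.1, checked on simulated lists. A ratio of 1.5 either way was called as a description of size. Scaling by island totals removes differences in enrichment together with those in sequencing depth, which is unknown, and the intervals treat PCR copies as separate molecules. All 9 receptor genes were named, and of other receptors and ligands the called ones, at most 6 per list. The remaining S1P receptors, the receptor genes without islands and the ligands not called were named beyond that rule, after their values were seen. Alternatives varied the scaling, the window, the assignment of islands and the size called. The genes and lists were chosen with earlier results of these data known.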

Additional observations from a re-analysis of the deposited data

How the results depend on the processing

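No test was possible, so alternatives are given as values. No paired analysis was possible because replicates were pooled by genotype before islands were called, and for the same reason none could be left out. Of 116 alternative values of the summary results 82 stayed within 1.5 times (counts) or within a counting interval (medians and shares), and the cause of the others was not tested. For a median count ratio this was the interval of the single gene nearest to it, and its width was also used around the median density ratio. It is thus not an interval of the median itself. The number of receptor genes at least 1.5 times higher, 1 as reported, was 2 with scaling by regions in both lists, with the median region ratio set to 0, with 5 kb upstream and with 50 kb on both sides. It was 0 with prorated islands, islands nearest to the gene's start, counts per kb, merged regions and without S1pr5. The gene called also changed. With 5 kb upstream the genes were Ccr2 (0.91) and Ccr4 (0.90). With 20 kb upstream the number stayed at 1, but the gene was Ccr4 (1.29) and S1pr5 was at 0.51. By midpoint (0.66) and without islands at promoters of other genes (1.09) it stayed at 1 with Ccr10, and S1pr5 was at 0.26 and -0.74. The number at least 1.5 times lower was 1 with 5 kb upstream and without islands at promoters of other genes. Their median count ratio was 0.21 under the first 2 scalings, 0.05 with 5 kb and 0.41 with 20 kb upstream, 0.08 with 50 kb on both sides, prorated islands or merged regions, and 0.02 with nearest islands. The median density ratio was 0.05 under both scalings and 0.09 with 5 kb upstream. Those scalings shift every ratio by 0.07. S1pr5 reversed to -0.88 with 5 kb upstream, -0.36 with nearest islands and -0.74 without islands at promoters of other genes. Some smaller ratios changed sign too. Ccr6 went from 0.27 to -0.46 with 50 kb on both sides, and Cxcr5 from 0.21 to -0.15 with prorated islands. Ccr4 went from 0.56 to -0.01 with nearest islands. Of the other receptor genes 5 were called with 50 kb on both sides, 3 with merged regions and 0 by counts per kb. Their median was 0.15 under both scalings, 0.38 with 5 kb, 0.22 with 20 kb, 0.26 by midpoint, 0.42 with nearest islands and 0.14 without other promoters. With 50% reciprocal overlap the shared islands were 58.9% in WT and 47.8% in dKO. The merged regions, the start used by most transcripts and the omission of S1pr5 were chosen after seeing the data. Cxcr5 had no value without islands at promoters of other genes and Ccr10 none with nearest islands, so 8 genes remained there.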
